A study of Mus musculus with 12 samples.

Results

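A set of 128 array probes, of 42006 in all, fell at least 2-fold in mouse embryonic stem cells after Sox2 was switched off, per the labels, and had made most of that fall by 24 h after the switch. The cells are 2TS22C, an inducible Sox2 knockout line in which adding tetracycline (Tc) shuts Sox2 off. Untreated cells (0 h) and cells harvested 3, 6, 12, 24, 48, 72 and 96 h after Tc were all grown in GMEM medium with the cytokine LIF, so that every group shares the line, its knockout background and the medium. The 12 arrays comprise pairs for 0, 6, 24 and 72 h and single arrays for the other times. On each of them the cells' RNA carried Cy3 and a reference RNA pooled from mouse cell lines carried Cy5. The labels do not say how many clones or separate cultures stand behind the arrays, so p-values measure the spread between these arrays, which may be technical. The description field of the labels gives the untreated form for every sample, and the titles and the series design, which give Tc to all samples after 0 h, were followed.

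Pluripotency of these cells is held by a small circuit of transcription factors in which Sox2 binds DNA beside Oct3/4 (Pou5f1) at enhancers of many genes that are active in stem cells. Cells without Sox2 leave the pluripotent state, and trophectoderm-like cells are a known outcome. A transcript's level depends on its synthesis and on its decay, which an array does not separate, and in a culture that changes, fewer cells of a type and less RNA per cell cannot be told apart.

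The probes were chosen by measured values. The measure was the log2 ratio of the processed Cy3 signal over the processed Cy5 signal, so a value of 1 is 2 times the reference and a fall of 1 is a 2-fold drop. The end change was the mean of the 72 and 96 h arrays minus the 0 h mean. A probe was taken when its end change was -1 or lower, its change at 24 h was at least 60% of the end change, and its change at 12 h was above -0.7. Its Cy3 signal also had to be well above background on both 0 h arrays and its Cy5 signal on all 12 arrays. These signal conditions were met by 38670 probes, of which 752 had an end change of -1 or lower: the 128 described here, 98 that were already down by 0.7 or more at 12 h, and 526 that had reached less than 60% of their end change at 24 h. Changes from 0 h at 12, 24, 72 and 96 h are therefore a description of the choice and carry no test. At the limit of the end change the 3 nearest probes inside lay at -1.002, -1.02 and -1.03 and the 3 nearest outside at -0.998, -0.998 and -0.996. At the limit of 60% they had reached 60.2%, 60.4% and 60.7% inside and 59.6%, 59.1% and 58.2% outside. At the 12 h limit they lay at -0.694, -0.691 and -0.689 inside and -0.701, -0.706 and -0.708 outside.

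The files do not pair probes with genes, and no transcript sequences were used, so counts are of probes and the probes are identified by their 60-base sequences. Which probe reads Sox2 was therefore not known, and the switch itself was not checked. The 6 sequences that follow belong to the probes that fell most between the 3 and 6 h arrays and the 48 h array. The choice used these arrays only through its condition on the Cy5 signal and not through their ratios. The sequences identify the probes behind the largest falls of the ratio. Capitals mark the hexamer AATAAA, the common signal for cleavage and polyadenylation at the end of transcripts, where a probe holds it.
Z00036522-1: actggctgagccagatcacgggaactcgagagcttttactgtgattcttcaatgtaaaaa
Z00031583-1: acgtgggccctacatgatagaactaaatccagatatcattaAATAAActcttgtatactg
Z00025345-1: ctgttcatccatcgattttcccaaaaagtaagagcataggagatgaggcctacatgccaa
Z00004931-1: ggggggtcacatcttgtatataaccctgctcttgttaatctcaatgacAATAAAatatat
Z00034455-1: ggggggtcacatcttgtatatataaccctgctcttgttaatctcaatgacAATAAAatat
Z00020906-1: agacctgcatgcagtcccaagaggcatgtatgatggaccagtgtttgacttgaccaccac

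Several facts of the arrays bear on these probes. Per the file headers, image analysis took place on 2 days. Arrays up to 12 h were read on 1 day and those from 24 h on were read on the other. They are called the first and the second day here, by the order of the times. Image analysis day and time after Tc cannot be told apart wherever early arrays are set against late ones. The median net Cy3 signal over all probes was 97.1 to 120 units on the first day and 122 to 221 on the second. Between the 2 arrays of 1 time, the SD pooled over the 128 probes was 0.14 at 0 h, 0.17 at 6 h, 0.16 at 24 h and 0.17 at 72 h in log2 units. In Cy3, 127 of the 128 probes were well above background on each of the 12 arrays, and the remaining one fell short of that on the pair of 72 h. Each sat on a single spot, 2 had an outlier flag on some array and 1 was saturated in Cy3 on some array.

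By the median, the 128 probes stayed near their untreated level for 6 h and had begun to drop at 12 h. The main step of the median came between 12 and 24 h. Single probes differed: their changes ran from -0.77 to 0.39 and from -0.44 to 0.97 on the 6 h pair. By 12 h single probes had reached up to 63.5% of their end change. The median change from the 0 h mean was 0.03 log2 units on the 3 h array, -0.0007 and 0.07 on the 6 h pair, and -0.36 on the 12 h array. The 24 h pair gave -1.13 and -1.06, the 48 h array -1.39, the 72 h pair -1.34 and -1.32, and the 96 h array -1.37. From 24 h on, each of the 128 probes lay below its 0 h mean on every array. The quartiles of the 128 probes were -0.52 and -0.14 on the 12 h array, -1.78 and -1.10 on the 48 h array, and -1.70 and -1.14 on the 96 h array. The median step between successive time means was -0.34 up to 12 h, -0.78 up to 24 h, -0.28 up to 48 h, -0.0058 up to 72 h and -0.03 up to 96 h. The largest median step was the one that ended at 24 h, which is also the step the choice asked for. The median over all 38670 probes that met the signal conditions stayed between -0.02 and 0.02 on every array.

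Expressed as a share of the end change, the median probe stood at -2.12% after 3 h and at -2.73% after 6 h. It had reached 25.2% by 12 h, 75.6% by 24 h and 98.0% by 48 h. The 24 h shares ran from the limit of the choice to 156%, and the 48 h shares from 60.7% to 152%. The medians by 12, 24 and 48 h were 63.4%, 92.4% and 100.1% in the 98 probes that were down earlier. They were 6.10%, 22.0% and 70.4% in the 526 probes that fell later. The differences at 12 and 24 h are fixed by how the 3 groups were separated. The 48 h ratios had no part in that separation. The shares at 48 h also rest on the 0 h mean and the end change, which did have a part. The shares at 48 h were not tested against each other. From 72 to 96 h the median step was -0.21 for the later fallers and -0.03 for the 128 probes, a difference that was not tested.

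The ratios of the 3, 6 and 48 h arrays had no part in the choice, which used these arrays only for its Cy5 condition. They give a further reading of the fall but no independent test of it. The choice asked for a fall both before and after 48 h, so low values at 48 h were likely from the outset. The spread behind the limma p-values came from the replicated times, which apart from 6 h also served in the choice. At 48 h, 125 of the 128 probes were lower than on the 3 arrays of 3 and 6 h and none was higher, with limma at an adjusted p under 0.05 over all 41754 probes tested. Of all tested probes 8.84% were lower and 12.3% higher in this comparison. The median difference over the 128 probes was -1.43 log2 units, with quartiles of -1.85 and -1.14, against 0.0061 over all tested probes. The 48 h value lay below all 3 arrays of 3 and 6 h for each of the 128 probes, which was so for 33.7% of the probes that met the signal conditions. Among the other fallers, 95 of the 98 earlier and 478 of the 526 later ones were called lower, with medians of -1.52 and -0.94.
The 48 h array has no replicate and was assumed to vary like the replicated times. It was read on the second image analysis day and the 3 and 6 h arrays on the first.

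Probe Z00036522-1 had the largest fall in the ratio. With Cy3 alone its difference at 48 h against 3 and 6 h was -4.21. Z00004931-1 and Z00034455-1 fell more by that measure, by -4.33 and -4.46. The log2 ratio of Z00036522-1 in untreated cells was -0.03 and -0.04. The 3 h array gave -0.09, the 6 h pair 0.01 and 0.04, and the 12 h array -0.09. The 24 h pair gave -2.55 and -2.70, the 48 h array -3.89, the 72 h pair -3.49 and -3.52, and the 96 h array -3.37. All arrays up to 12 h lay within a narrow band at the level of the reference, and all later ones lay far below it without overlap. The difference between 48 h and the 3 and 6 h arrays was -3.88 (SE 0.07, limma adjusted p = 3.38e-05), or 14.7-fold lower. In scanner units its net Cy3 signal was 3018 and 3052 on the untreated arrays, 3353 on the 12 h array, 530 and 430 on the 24 h pair and 193 on the 48 h array. Its net Cy5 signal was 5875 and 6039 on the untreated arrays and 7043 on the 48 h array.

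Probe Z00031583-1 began to drop before 24 h. Its log2 ratio in untreated cells was 1.42 and 1.46. The 3 h array gave 1.47, the 6 h pair 1.60 and 1.60, and the 12 h array 0.76. The 24 h pair gave -1.24 and -1.09, the 48 h array -1.99, the 72 h pair -1.52 and -1.53, and the 96 h array -1.62. The 12 h array stood between the earlier and the later ones, and the lowest value was that of 48 h. Its net Cy3 signal was 456 and 450 units on the untreated arrays and 42 on the 48 h array. With normexp (offset 50) and loess in place of the processed signals, its difference between 48 h and 3 and 6 h was -2.79. The difference between 48 h and 3 and 6 h was -3.55 (SE 0.07, limma adjusted p = 3.70e-05), or 11.7-fold lower.

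Probe Z00025345-1 had a log2 ratio of 3.01 and 3.08 in untreated cells. The 3 h array gave 3.37, the 6 h pair 3.13 and 4.02, and the 12 h array 2.47. The 24 h pair gave 0.59 and 0.61, the 48 h array 0.37, the 72 h pair 0.37 and 0.31, and the 96 h array 0.22. Its 2 arrays of 6 h were far apart, with net Cy5 signals of 85.5 and 49.3 units. The difference at 48 h was -3.14 (SE 0.30, limma adjusted p = 0.00116). With normexp (offset 50) and loess it was -2.46. The probe's net Cy3 signal was 312 and 338 units on the untreated arrays and 51.1 on the 48 h array. From 24 h on its arrays stayed in a narrow range just above the reference.

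Probes Z00004931-1 and Z00034455-1 carry nearly the same sequence, with an unbroken run of 42 shared bases, and so are no independent readings. In untreated cells the first read 4.28 and 4.49 and the second 4.40 and 4.44, as log2 ratios. Up to 12 h the first read 4.49 (3 h), 4.56 and 4.65 (6 h) and 4.46 (12 h), and the second 4.51, 4.62 and 4.72, and 4.40. Neither had dropped by then. The 24 h pair gave 1.81 and 1.83 for the first and 1.99 and 2.14 for the second, and the 48 h array 1.47 and 1.86. The 72 h pair gave 1.71 and 1.12 for the first and 1.65 and 1.34 for the second, and the 96 h array 0.55 and 0.87. In net units the first read 674 and 912 in Cy3 and 511 and 917 in Cy5 on the 72 h pair. On the 96 h array it read 971 in Cy3 and 1294 in Cy5. The second read 639 and 703 in Cy3 and 506 and 615 in Cy5, then 684 and 739. Both log2 ratios, with the dyes normalized, stayed above 0 to the end. Net Cy5, the reference channel, also fell for both probes. On the untreated arrays it was 1559 and 1283 units for the first and 1359 and 1335 for the second. On the 48 h array it was 826 and 505. With Cy3 alone the pair's differences at 48 h against 3 and 6 h were -4.33 and -4.46, larger than those of the ratio, given next. Their differences at 48 h against 3 and 6 h were -3.09 (SE 0.21) and -2.76 (SE 0.13), with limma adjusted p = 0.000411 and 0.000146. From 72 to 96 h they differed by -0.87 and -0.62, and neither was called in that step (limma adjusted p = 0.13 and 0.0851).

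Probe Z00020906-1 had a log2 ratio of 1.88 and 1.97 in untreated cells. The 3 h array gave 1.93, the 6 h pair 1.94 and 1.93, and the 12 h array 1.31. The 24 h pair gave -0.37 and -0.43, the 48 h array -0.74, the 72 h pair -0.44 and -0.45, and the 96 h array -0.21. The 12 h array again stood between the early and the late ones. The arrays of 3 and 6 h gave 1.93 ± 0.0052 (SD, n = 3), and the difference at 48 h was -2.67 (SE 0.06, limma adjusted p = 4.93e-05). The following 6 probes in order of this fall differed by -2.56 to -2.25, and each of them was called. Among them Z00041731-1 and Z00006521-1 began higher, at 3.75 and 3.97 over the reference at 0 h (log2), and stood at 2.08 and 1.59 at 96 h.

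The 3 probes not called at 48 h were Z00052936-1, Z00025478-1 and Z00028293-1, named after their values were seen. Their differences from 3 and 6 h were -0.53 (SE 0.16, limma adjusted p = 0.0644), -0.48 (SE 0.24, limma adjusted p = 0.237) and -0.27 (SE 0.21, limma adjusted p = 0.448). Z00028293-1 stood at 54.3% of its end change on the 3 h array and at 47.6% over the 6 h pair, the highest shares of the 128 probes at both times. Z00025478-1 had reached 105% of its end change by 24 h but stood at 61.4% on the 48 h array.

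No movement was called between 3 and 6 h. Of the 128 probes, 71 were lower and 57 higher at 6 h, with a median difference of -0.02 and a range from -0.58 to 0.57. None passed limma's adjusted p of 0.05, and 16 (12.5%) had an unadjusted p under 0.05, against 7.55% of all tested probes. Over all tested probes 0.012% were called lower and 0% higher. The 98 earlier fallers had a median difference of -0.21 over the same arrays, 87 of them lower, and again none was called. Both times were read on the first image analysis day.

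On the single 12 h array the changes of the probes were spread out, with quartiles of -0.52 and -0.14. On that array 104 of the 128 lay below all 3 arrays of 3 and 6 h, against 23.7% of the probes that met the signal conditions. This is a description, because the 12 h change enters the choice through its limit. Relative to the 0 h mean, 110 were lower, 38 of them by 0.5 or more, and 18 were higher. These 18, at 0.05 to 0.47 above their untreated level at 12 h, stood 0.84 to 2.65 lower at 24 h, with a median step of -1.18. Their median rise at 12 h was 0.13, no larger than the SD between arrays of 1 time (0.14 to 0.17). The 17 probes with an end change of -2 or lower were spread from -0.69 to 0.08 at 12 h. Of these, 9 were down by 0.5 or more at 12 h and 5 were within 0.2 of their untreated level or above it, Z00036522-1, Z00004931-1 and Z00034455-1 among the latter.

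The counts for the times after 24 h are a description. The 48 h value lay below both 24 h arrays for 99 of the 128 probes and above both for 13, against 41.9% of probes below among those that met the signal conditions. The 24 h arrays chose the probes, so nothing is read from this count. The lowest of the 8 time means fell on 96 h for 59 probes, on 48 h for 37, on 72 h for 28 and on 24 h for 4. Among all probes that met the signal conditions 24.0% had it on 96 h and 11.9% on 48 h. For the later fallers it fell on 96 h in 455 of 526. The choice favours a lowest mean from 24 h on, and the values of 48 and 96 h are single arrays. Nothing is read from these counts of lowest means either. At 96 h, 51 of the 128 probes stood higher than at 48 h, as did 22 of the 526 later fallers and 50.8% of all probes that met the signal conditions.

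The step from 72 to 96 h is a difference that the choice, which used the mean of these 3 arrays, did not take. Over the 128 probes its median was -0.03 log2 units, with quartiles of -0.15 and 0.13 and a range from -0.98 to 0.86. None was called lower and 4 were called higher, with limma at an adjusted p under 0.05, where 0.635% of all tested probes were lower and 1.16% higher. At an unadjusted p under 0.05 there were 27 (21.1%), against 16.4% of all tested probes. The highest value, 0.86 (SE 0.29, limma adjusted p = 0.214), was that of Z00064058-1, the probe that was not well above background in Cy3 on the 72 h pair, and it was not called. The 96 h array lay below both 72 h arrays for 56 probes and above both for 46, where 36.4% and 39.2% of the probes that met the signal conditions did so. Of the 526 later fallers 40 were called lower and none higher. The 96 h array has no replicate, and all 3 arrays were read on the second image analysis day.

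The 4 probes called higher at 96 h were Z00035254-1, Z00023947-1, Z00009499-1 and Z00018200-1. The last was outside the rule for naming and was taken after its values were seen. Z00035254-1 read -1.43 and -1.43 in untreated cells, -2.66 and -2.62 on the 24 h pair, -3.01 on the 48 h array, -3.02 and -3.07 on the 72 h pair and -2.31 on the 96 h array, a step of 0.74 (SE 0.05, limma adjusted p = 0.0203). Z00023947-1 went from -1.02 and -1.04 to -0.47, a step of 0.56 (SE 0.05, limma adjusted p = 0.0203). Z00009499-1 went from 1.93 and 1.86 to 2.38, a step of 0.49 (SE 0.06, limma adjusted p = 0.0296). Z00018200-1 went from -0.86 and -0.82 to -0.50, a step of 0.34 (SE 0.05, limma adjusted p = 0.0409). All 4 were still below their 0 h arrays at 96 h. None of the 4 calls held when any 1 array of a replicated time was left out, with the replicate block, at an adjusted p under 0.01 or with Cy3 alone, where 0 of the 128 were called higher. Over all 41754 probes tested at most 2 were then called in this step, so the loss was common to all probes. The step of Z00035254-1 was 0.72 to 0.76 without 1 array, 0.73 with the replicate block and 0.37 with Cy3 alone.

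Both channels were read apart, since a ratio can fall through either. After each array was centred on its median over the probes that met the signal conditions, the median Cy3 change of the 128 probes from 0 h was -0.36 on the 12 h array, -1.26 and -1.10 on the 24 h pair, -1.56 on the 48 h array, -1.58 and -1.60 on the 72 h pair and -1.62 on the 96 h array. Cy5, which held the same reference RNA throughout, changed by a median of -0.04 on the 12 h array, -0.21 and -0.08 on the 24 h pair, -0.17 on the 48 h array, -0.18 and -0.21 on the 72 h pair and -0.32 on the 96 h array. In both channels the median lay below 0 from 12 h on. Over all probes that met the signal conditions the Cy5 medians were -0.07 and 0.02 on the 24 h pair and -0.14 on the 96 h array. With Cy3 alone, normalized by quantiles, 120 of the 128 probes were called lower at 48 h than at 3 and 6 h, with a median of -1.65. In units, the median net Cy3 signal of the 128 probes was 353 and 345 on the untreated arrays, 277 on the 12 h array, 171 and 157 on the 24 h pair, 132 on the 48 h array and 198 on the 96 h array. Over all probes that met the signal conditions these uncentred medians were 164 units on the 48 h array and 262 on the 96 h array.

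In untreated cells the 128 probes stood high over the reference. Their median log2 ratio at 0 h was 1.72, with quartiles of 0.93 and 2.62 and a range from -2.82 to 5.32, against a median of -0.04 over all probes that met the signal conditions. At 0 h 118 of the 128 were above the reference on both arrays and 90 more than 2-fold. The medians of the other fallers were 1.24 and 1.80. The 0 h arrays entered the choice of all 3 groups through the end change. That choice favours a high start, so nothing is read from these levels. At 96 h, 74 of the 128 were still above the reference, as were 35 of the 98 earlier and 336 of the 526 later fallers. Across the 128 probes, which are no independent replicates and share the 0 h arrays between both measures, the 0 h ratio and the end change had a Pearson r of -0.34 and a Spearman rho of -0.33. The 17 probes with the largest end changes began at a median of 2.83 and the remaining 111 at 1.54.

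The probes' own sequences were set against all that met the signal conditions. The median G and C content was 40.0%, with quartiles of 35.0% and 45.0%, against 45.0% over all, and it was 40.0% in both other groups of fallers. The hexamer AATAAA stood in 19 of the 128 sequences as written on the array (14.8%), against 6.66% of all, 7.14% of the earlier and 7.98% of the later fallers. On the other strand it stood in 2 of the 128 (1.56%) and in 3.43% of all. No test was made of these shares, and 2 of the 19 are the near-identical pair, Z00004931-1 and Z00034455-1. On the array 50.8% of the 128 spots lay above the middle row number and 61.7% above the middle column number, where 52.1% of all probes that met the signal conditions lay.

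A few of the 128 probes share a run of bases with other probes of the array. With an unbroken run of at least 20 bases in common, 6 of the 128 shared sequence with a probe on the same strand and 1 with a probe on the opposite strand. The opposite pair is shown with its 34 shared bases in capitals, each probe as written on the array.
Z00031583-1: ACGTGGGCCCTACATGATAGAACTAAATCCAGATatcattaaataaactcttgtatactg
Z00031760-1: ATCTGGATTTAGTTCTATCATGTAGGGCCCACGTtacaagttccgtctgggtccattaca
The probe of the opposite strand, Z00031760-1, met the signal conditions and stood at -0.0033 over the reference at 0 h (log2). Its changes from 0 h by 12, 24 and 48 h and at the end were -0.09, -0.11, -0.04 and -0.11. Those of Z00031583-1 were -0.68, -2.60, -3.43 and -3.00. The large drop was read by the probe of 1 strand and not by its partner. The pair was singled out after its values were seen.

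On the same strand, 2 probes that differ by a shift of their ends fell on different sides of the 12 h limit. They share 58 bases, in capitals.
Z00056893-1: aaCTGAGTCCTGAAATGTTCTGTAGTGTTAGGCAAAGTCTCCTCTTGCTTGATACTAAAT
Z00024977-1: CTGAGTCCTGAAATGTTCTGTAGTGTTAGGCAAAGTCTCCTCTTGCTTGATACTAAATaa
By 12, 24 and 48 h and at the end Z00056893-1 had changed by -0.35, -1.19, -1.44 and -1.71, and Z00024977-1 by -0.78, -1.10, -1.32 and -1.61. They lay farthest apart on the single 12 h array, so that the second counts among the earlier fallers. Their arrays of 6 h disagreed as well. From log2 ratios of 1.80 and 1.80 at 0 h, the first read 1.91 and 2.01 on the 6 h pair. From 1.39 and 1.42 at 0 h, the second read 1.70 and 1.21. Z00057576-1 and its partner Z00032646-1 share 44 bases and ended at -1.04 and -1.02. Their changes at 24 h were -0.66 and -0.53, and the partner had reached 52.3% of its end change and counts among the later fallers. Z00070676-1 has 2 partners, with 30 and 20 shared bases, and differs from both in bases next to the shared run. It ended at -1.16 and they at -1.62 and -1.77, and they too fell short at 24 h with 56.9% and 54.2%. Z00073029-1, which ended at -1.52, shares 21 and 22 bases with 2 probes that ended at -0.28 and -2.22. Apart from the one at -0.28, these partners on the same strand had end changes below -1, and the limits at 12 and 24 h placed several of them in other groups.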

How the data were processed

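RNA of 12 samples was hybridised to 12 two-colour arrays of 42034 probe spots. According to the headers of the deposited scanner files, the authors' scanner software (Feature Extraction 7.5.1) gave the intensity values, subtracted their background and normalized the dyes. In the authors' series table the values are taken as log10, with column medians of 2.976 to 2.983; its centring stays unknown, and its direction, sample over reference, was read from the data. Its deviations from each probe's mean correlated with those of the ratios at 0.86 to 0.97 per array.

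Log2 ratios of the processed signals, the scale of the choice, were averaged over spots of a probe and fitted with lmFit and eBayes of limma 3.58.1 under R 4.3.3, in 1 model of 8 time groups with 4 residual degrees of freedom. Probes with Cy3 well above background on at least 2 arrays were tested (41754), with Benjamini-Hochberg adjustment over all of them. The fits were tested on simulated data with independent noise and no shift between image analysis days. That run does not bear on such shifts in the real arrays. The 128 probes, the limits and the tests were chosen with earlier results of these data known. Probes were named by the fall at 48 h (12 probes, of which the first 6 are shown by sequence), by the step from 72 to 96 h, and where pairs or uncalled probes are said to have been singled out. Overlaps, hexamers and steps were added after the data were seen. Gene lists and cell type markers were not used, for want of gene names. The number of arrays limits the precision. Replicate numbers were not taken as pairs: deviations of same-numbered arrays correlated at -0.02 to 0.16.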

Additional observations from a re-analysis of the deposited data

How the results depend on the processing

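Under the 8 other alternatives to the signal, weighting, filter, block or flags and the stricter adjusted p of 0.01, the number of the 128 probes called lower at 48 h than at 3 and 6 h was 111 to 126, and without 1 array of a replicated time it was 120 to 125; none was called higher in any of them. The median difference was -1.16 with normexp (offset 50) and loess, -1.65 with Cy3 alone and -1.42 with the replicate block, and -1.48 to -1.40 without 1 array. From 3 to 6 h no probe was called under any alternative run. From 72 to 96 h, 8 probes were called lower and 8 higher with normexp (offset 50) and loess, and 1 lower with the deposited table; 0 were called higher with Cy3 alone, with the replicate block, at an adjusted p under 0.01 and without any 1 array. The replicate block gave 122 probes lower at 48 h and called none between 3 and 6 h. The choice itself gave 82 probes with normexp (offset 50) and loess, 70 of them among the 128, 140 with Cy3 alone (72 among the 128), 127 with the deposited table (125) and 119 to 139 without 1 array; 87 were chosen in each of the 8 repeats without 1 array. The cause of these shifts was not tested. Signal limits the dimmest of the 128 probes, whose net Cy3 was 12.5 units on the 48 h array against a median of 132.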
